A study of Mus musculus with 4 samples.

Results

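Olfactory receptor genes form the largest gene family of the mouse and lie in tandem clusters on most chromosomes. The open regions described here are those found in and around these genes by ATAC-seq, which inserts sequencing adapters into accessible DNA with a transposase, in mouse embryonic stem cells. The regions were taken by position. Peaks from 4 deposited lists were merged into 208141 regions, and a region was kept when it overlapped the body of a gene with an Olfr symbol, or the 10 kb on either side, in the GRCm38 annotation. Of 669 such regions, 45 lay within 1 kb of a protein-coding gene of another family and were left out. The remaining 624 regions, 0.300% of the total, are called receptor regions below. The rule searched around 1428 receptor genes, of which 1110 were annotated as protein-coding and 317 as pseudogenes, and 503 of them had a receptor region in the body or within 10 kb.

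The libraries came from cells labelled wt and cells labelled Hox-/-, with 2 libraries of each. All of the cells were grown in serum with leukaemia inhibitory factor and inhibitors of GSK-3 and of MEK1/2. According to the title of the series, the mutant cells lack all Hox function. How many clones the Hox-/- cells represent is not given in the sources used here, and nothing states that replicates came from separate cultures, so p-values measure only the spread between these libraries. On the main chromosomes the wt lists had 213633 and 216724 peaks and the Hox-/- lists 191641 and 200142. The sequencing depth is unknown. Values listed in library order below are those of wt replicate 1, wt replicate 2, Hox-/- replicate 1 and Hox-/- replicate 2.

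An olfactory receptor is a G-protein-coupled receptor that detects odorants, and a mature olfactory sensory neuron expresses a single receptor gene from a single allele. In those neurons the other receptor genes are packed in heterochromatin, and distant enhancers bound by LHX2, EBF and LDB1 act on the chosen gene. Embryonic stem cells are not olfactory cells, and stem cell genes served as a check of the labelled cell type. Peaks lay within 1 kb of an end of 8 of 8 stem cell genes in all 4 libraries, including Pou5f1, Sox2 and Nanog, which encode core pluripotency factors. Over all protein-coding genes this share was 69.1%. Of 6 olfactory neuron markers, all of which are also on the longer signalling list described at the end, 2 had such a peak in all 4 libraries (Gnal and Adcy3) and 4 had none in any (Omp, Cnga2, Stoml3 and Rtp1).

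The starts of receptor genes were where receptor regions were most clearly scarce compared with other genes, so 4 start sequences are shown. Each runs from 250 bases before to 50 bases after the annotated start (RefSeq, GRCm38.p6), 5′ to 3′ on the strand of the gene, with CG pairs in capitals. Olfr373 (chr8:72099512-72099811, plus strand) and Olfr1349 (chr7:6515378-6515677, minus strand) are shown because the strongest summit of a region called in all 4 libraries fell inside the window. Olfr147 (chr9:38401461-38401760, plus strand) and Olfr697 (chr7:106741907-106742206, minus strand) are shown because they are the genes nearest to the 2 strongest receptor regions. Strength was judged by the rank in the weakest library, and no region overlapped the starts of Olfr147 and Olfr697. These 4 genes were chosen after their values were seen.
Olfr373: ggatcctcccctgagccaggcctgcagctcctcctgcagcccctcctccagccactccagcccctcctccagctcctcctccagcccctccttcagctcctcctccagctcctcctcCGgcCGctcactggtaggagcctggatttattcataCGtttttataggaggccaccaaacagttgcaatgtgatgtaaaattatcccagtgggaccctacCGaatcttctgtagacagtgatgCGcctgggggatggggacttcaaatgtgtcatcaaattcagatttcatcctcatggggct
Olfr1349: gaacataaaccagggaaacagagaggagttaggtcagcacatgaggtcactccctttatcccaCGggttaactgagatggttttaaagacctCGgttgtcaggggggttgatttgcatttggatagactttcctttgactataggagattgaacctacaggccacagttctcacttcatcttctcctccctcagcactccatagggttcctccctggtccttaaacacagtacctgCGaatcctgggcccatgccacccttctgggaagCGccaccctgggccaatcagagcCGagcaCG
Olfr147: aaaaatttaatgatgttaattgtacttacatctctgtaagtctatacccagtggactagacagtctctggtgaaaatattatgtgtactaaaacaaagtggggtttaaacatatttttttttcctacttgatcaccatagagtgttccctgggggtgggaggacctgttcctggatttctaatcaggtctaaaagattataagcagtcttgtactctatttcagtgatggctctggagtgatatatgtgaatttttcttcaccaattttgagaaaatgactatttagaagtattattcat
Olfr697: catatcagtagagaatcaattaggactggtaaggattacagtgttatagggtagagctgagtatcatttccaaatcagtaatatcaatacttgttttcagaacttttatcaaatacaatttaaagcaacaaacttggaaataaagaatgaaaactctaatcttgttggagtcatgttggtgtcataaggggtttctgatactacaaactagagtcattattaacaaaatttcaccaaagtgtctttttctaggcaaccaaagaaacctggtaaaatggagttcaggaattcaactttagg
The open starts of Olfr373 and Olfr1349 had 5 and 6 CG pairs and a GC content of 56.0% and 51.7%. Both closed starts had 0 CG pairs, and their GC content was 34.0% and 32.7%.

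Receptor starts were seldom open. Of 948 start windows, belonging to 944 receptor genes found in the sequence table, 14 overlapped a region, which is 1.48% (exact 95% binomial interval 0.810% to 2.47%, counting error only). Among starts of other protein-coding genes the share was 68.6% of 20315, and among all protein-coding starts it was 65.6%. In single libraries 11, 11, 10 and 11 receptor windows overlapped a region (library order). These counts are 1.05% to 1.16% of the receptor windows, against 66.2% to 67.2% for other protein-coding genes in the same libraries, so the ranges were far apart. When the windows were displaced by 2 to 8 kb in either direction, 1.27% to 2.85% of receptor windows overlapped a region. The true starts lay inside that range, whereas other protein-coding starts, at 68.6%, lay far above their displaced windows (8.07% to 11.9%). For vomeronasal receptor genes, which encode pheromone receptors and also lie in tandem arrays, 1 of 324 starts overlapped a region. For keratin-associated protein genes it was 2 of 51 (3.92%), at the top of the range of their displaced windows (0% to 3.92%). For beta-defensin genes it was 7 of 30 (23.3%), above their displaced windows (0% to 10.0%).

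**Figure D1:**
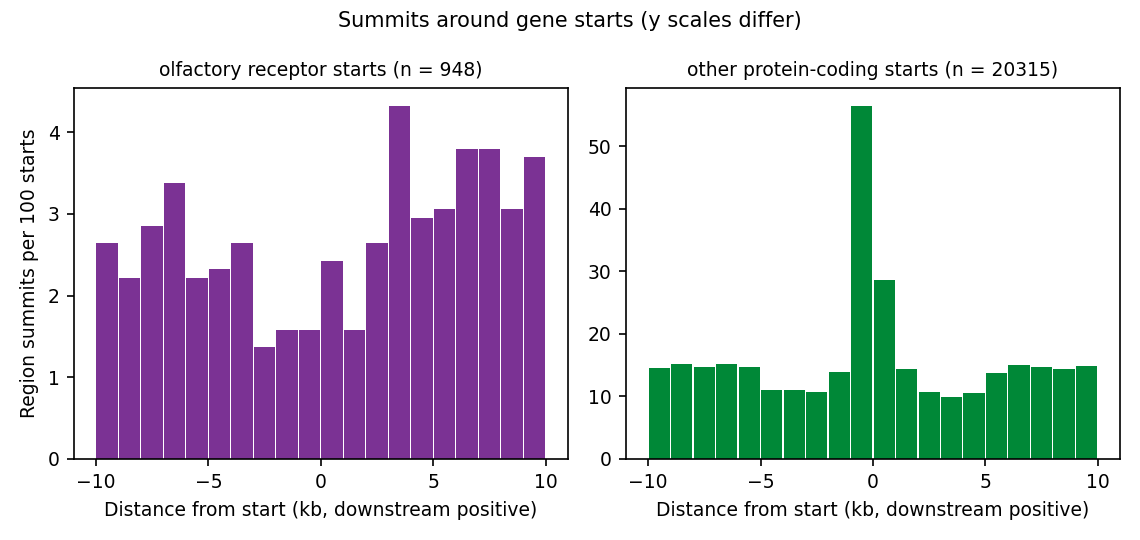
Summits of merged regions per 100 gene starts (y axis, scales differ between panels) in steps of 1 kb from 10 kb before to 10 kb after the start (x axis, downstream positive), for receptor genes (left, n = 948 starts) and other protein-coding genes (right, n = 20315 starts). Bars are counts over all 4 libraries merged, without error bars. The receptor panel has no peak at the start, with 1.58 summits per 100 starts in the 1 kb before it and 2.43 in the 1 kb after.

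Of the 14 open windows, 13 were opened by receptor regions and 1 by a region left out near another protein-coding gene. The 13 windows belonged to 13 genes, and 7 of their 13 regions were called in all 4 libraries, against 59.0% of all regions. The strongest was at Olfr373, where the region ranked 28715, 16298, 18457 and 18447 (library order) when each list is sorted by −log10 p from the strongest peak. Its summit lay 187 bp before the annotated start. At Olfr1349 the summit lay 25 bp before the start, but the ranks were low, from 134078 to 196756. The regions at Olfr27 and Olfr95 ranked 26836.5 to 44316 and 36035 to 68634, and their summits lay 654 bp before and 179 bp after the start. The other 3 regions found in all 4 libraries, at Olfr982, Olfr543 and Olfr1411, had ranks from 88646.5 to 176268. Their summits lay 465 and 526 bp after the start and 298 bp before it, so they fell outside the start window. The region at Olfr222 was called in 3 libraries, those at Olfr5, Olfr545 and Olfr370 in 2, and those at Olfr212 and Olfr288 in 1. At Olfr545 and Olfr370 the 2 libraries were 1 of each genotype.

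The starts with a receptor region had a higher median GC content than those without one, which include the window opened by a left-out region. The median GC content was 49.3% in the 13 windows with a receptor region and 35.0% in the 935 without, against 57.0% at other protein-coding starts. The median number of CG pairs was 3, 1 and 14 in the same order. The ranges overlapped, since windows without a receptor region reached 59.0% GC and those with one went down to 37.0%. Whether GC content sets which starts are called was not tested.

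Because near-identical receptor copies can make reads hard to place, the start windows were searched for 50-base words that also occur in another start window. On average 2.94% of the words of a receptor window did so, against 4.90% for other protein-coding genes and 32.3% for vomeronasal receptors. Only start windows were compared, so copies elsewhere in the genome are not counted. Their part in the low number of receptor regions was not tested.

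Motifs were matched exactly on both strands in the start windows. The octamer ATGCAAAT, bound by POU factors such as OCT4, occurred in 1 of the 13 windows with a receptor region. This was the window of Olfr1349, with the reverse complement at position 111 of the printed sequence. The octamer occurred in 2.57% of the 935 receptor windows without a receptor region and in 1.74% of all 32851 start windows. The LHX2 core CTAATTA occurred in 0 of the 13 windows with a receptor region and 5.45% of those without, against 2.00% of all windows. An EBF palindrome occurred in 0 of 13 and 0.535% (all windows, 0.904%), and a core of the CTCF motif in 0 of 13 and 0.214% (all windows, 2.43%). Matches to the ESRRB motif TCAAGGTCA and the KLF motif CCACACCC were also 0 of 13. In receptor windows without a receptor region they were at 0% and 0.107%, against 0.423% and 3.56% of all windows. None of these motif patterns was searched in the regions themselves, because no genome sequence was used here.

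Receptor territory, the gene bodies and flanks less the sequence within 1 kb of other protein-coding genes, spanned 22.5 Mb. Its wt libraries had 25.5 and 26.1 peaks per Mb there, and both Hox-/- libraries 24.7. The rest of the genome lying over 1 kb from protein-coding genes held 51.7 and 52.7 peaks per Mb in wt, and 46.8 and 48.7 in Hox-/-. This rest includes chromosomes X and Y. The groups of values did not overlap. Receptor territory thus had 0.506 ± 0.0159 (SD, n = 4) of the density of comparable sequence, a log2 ratio of −0.98 ± 0.05 (exact sign-flip permutation test over the libraries, two-sided, p = 0.13, which is the lowest that 4 libraries allow). Against the whole genome, with 70.9 to 80.2 peaks per Mb, the ratio was 0.332 ± 0.0115 (SD, n = 4).

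**Figure D2:**
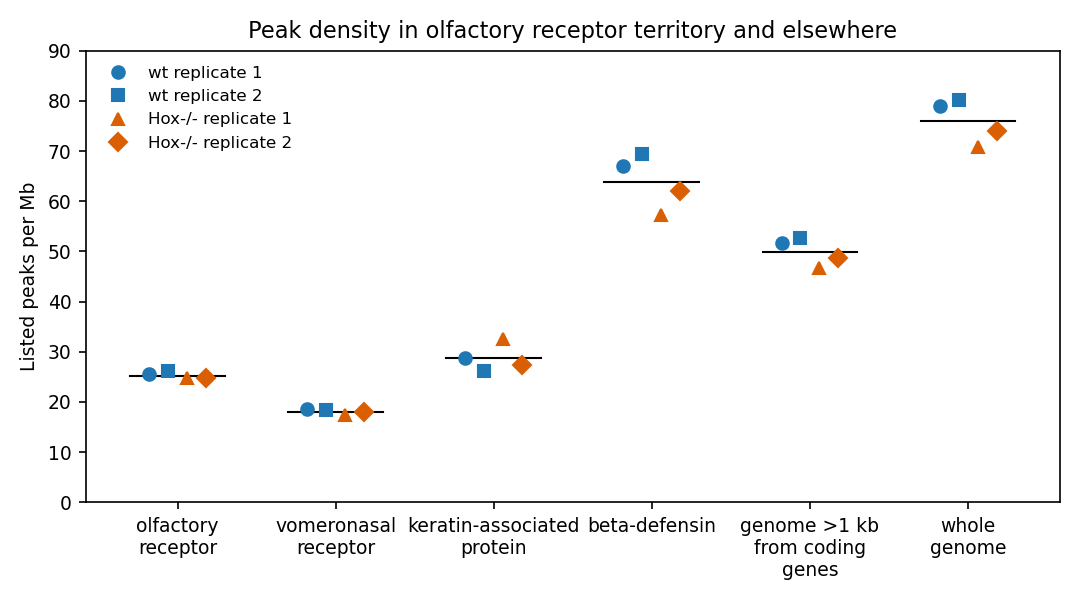
Listed peaks per Mb (y axis, from 0) in receptor territory, in the territory of 3 other tandem gene families by the same rule, in the genome over 1 kb from protein-coding genes and in the whole genome (x axis). Points are single libraries and bars their means. The 4 receptor values sit between 24.7 and 26.1, all below the 46.8 to 52.7 of the comparable genome.

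Other tandem families differed in density. Vomeronasal receptor territory held 18.1 ± 0.482 peaks per Mb (SD, n = 4), below olfactory receptor territory with 25.2 ± 0.678 (SD, n = 4). The ranges, 17.4 to 18.5 and 24.7 to 26.1, did not overlap. Keratin-associated protein genes, which encode hair proteins, had 28.7 ± 2.82 (SD, n = 4), and beta-defensin genes, which encode antimicrobial peptides, 63.9 ± 5.40 (SD, n = 4). These 2 families covered under 1 Mb each (0.767 and 0.821 Mb). A region by the same rule lay within 10 kb of 35.2% of olfactory receptor genes and 31.2% of vomeronasal receptor genes, while 50.0% of keratin-associated protein genes and 72.1% of beta-defensin genes had one.

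How far a receptor gene lay from genes of other families went with how many regions were called. Receptor territory 1 to 10 kb from another protein-coding gene held 78.2 regions per Mb, that at 10 to 50 kb held 44.6, that at 50 to 200 kb held 23.9, and that beyond 200 kb held 18.5. Elsewhere in the genome the same bands held 107.9, 83.4, 45.4 and 18.8 regions per Mb. Computed per library, the ratio of receptor territory to the rest was 0.807 ± 0.0167 (SD, n = 4) at 1 to 10 kb. It was 0.526 ± 0.0215 at 10 to 50 kb and 0.518 ± 0.0286 at 50 to 200 kb (each SD, n = 4; exact sign-flip permutation test, two-sided, p = 0.13 in the 3 bands up to 200 kb). Beyond 200 kb, where 9.20 Mb of the receptor territory lies, the ratio was 0.954 ± 0.0357 (SD, n = 4), from 0.924 to 1.001 (exact sign-flip permutation test, two-sided, p = 0.25). The density far from other genes was therefore within 10% of that of the rest of the genome at this distance in all 4 libraries. The rest of the genome includes chromosomes X and Y, and X holds only 0.167 Mb of receptor territory. Over 1 kb from protein-coding genes, X had 18.5 regions per Mb, against 44.5 to 87.6 on the autosomes with receptor genes. The bands were not computed without the sex chromosomes.

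**Figure D3:**
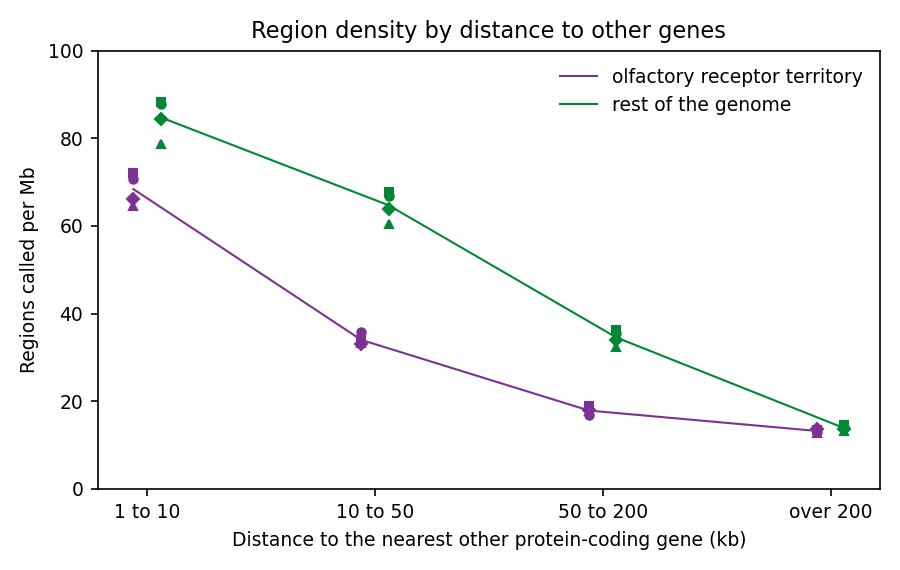
Regions called per Mb (y axis, from 0) by distance to the nearest protein-coding gene of another family (x axis, kb), for receptor territory and for the rest of the genome over 1 kb from protein-coding genes. Points are the 4 libraries (circle and square, wt replicates 1 and 2; triangle and diamond, Hox-/- replicates 1 and 2) and lines join their means. The curves lie apart up to 200 kb and meet beyond it, where the ratio was 0.954.

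Relative to the receptor genes themselves, the regions were sparsest just outside the gene body. Density was 21.5 ± 1.27 region summits per Mb inside gene bodies (SD, n = 4 libraries), 11.3 ± 1.61 within 1 kb of a body and 16.1 ± 0.699 at 1 to 2.5 kb. It was 23.3 ± 0.370 at 2.5 to 5 kb and 23.8 ± 0.664 at 5 to 10 kb. In the band within 1 kb the libraries ranged from 8.93 to 12.1, below the lowest value of each of the other bands (15.6 to 23.3). The other 12 summits lay beyond 10 kb, in regions that only reached into the flank. A receptor region overlapped the body of 73 of 1428 receptor genes, or 5.11%, with 5.14% of protein-coding receptor genes and 5.05% of receptor pseudogenes. Among the 20777 protein-coding genes outside the family, 84.3% had a region in the body, but these genes are longer.

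Most receptor genes had no receptor region within reach: 925 of 1428 had none in the body or within 10 kb. The longest run of such genes, 40 from Olfr988 to Olfr1027-ps1, covered 581 kb (chr2:85352995-85933545). The next were 22 genes from Olfr605 to Olfr260-ps1 on chromosome 7 (258 kb) and 18 genes from Olfr98 to Olfr110 on chromosome 17 (237 kb). On chromosome 19, 17 genes from Olfr235 to Olfr1449 extended over 667 kb.

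Receptor genes whose neighbours lay at most 500 kb apart were grouped into 70 clusters. The 24 clusters with 10 or more genes held 1296 genes and 512 receptor regions, with a median of 25.8 regions per Mb of territory and a range from 7.36 to 77.3. In 21 of the 24 the density was below the 53.3 regions per Mb of the comparable genome. Counting peaks, 19 of the 24 were in each of the 4 libraries below that library's own density in the comparable genome (46.8 to 52.7 peaks per Mb). The 46 smaller clusters, with 132 genes, had 112 regions at 48.1 per Mb. No region was found in 18 of them, and 4 more had no territory left after sequence near other genes was taken out. The densest with more than 5 genes were those from Olfr70 to Olfr155 on chromosome 4, with 8 genes and 17 regions, and from Olfr1344 to Olfr1350 on chromosome 7, with 9 genes and 14 regions. The latter holds the open starts of Olfr1349 and Olfr5. Of the 17 and 14 regions, 11 and 5 (64.7% and 35.7%) were called in all 4 libraries, against 59.0% of all regions.

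The cluster with the most genes, 293 from Olfr987 to Olfr1274 on chromosome 2 (chr2:85330967-90401674), held 74 regions. Its peak density was 16.4 ± 0.844 per Mb (SD, n = 4), from 73, 71, 66 and 66 peaks in library order. The chromosome 7 cluster from Olfr543 to Olfr692, with 158 genes, had 47 regions and 16.8 ± 1.57 peaks per Mb (SD, n = 4). The chromosome 9 cluster from Olfr160 to Olfr986, with 127 genes, was denser. It had 64 regions and 29.1 ± 0.474 peaks per Mb (SD, n = 4), and its 58, 59, 60 and 58 peaks were nearly equal in the 4 libraries. The lowest of its values, 28.7, was above the highest of the 2 clusters before it.

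On chromosome 19 the cluster from Olfr1417 to Olfr1505, with 91 genes, held 29 regions, of which 18 were called in all 4 libraries, and 21.9 ± 1.60 peaks per Mb (SD, n = 4). That from Olfr90 to Olfr136 on chromosome 17, with 58 genes, held 33 regions and 32.5 ± 3.08 peaks per Mb (SD, n = 4). Clusters of 1 chromosome could differ. On chromosome 7 the cluster from Olfr467 to Olfr519, with 52 genes, had 34.8 ± 4.03 peaks per Mb (SD, n = 4), and its lowest library, 30.6, was above the highest of the cluster from Olfr543 to Olfr692, 18.9. On chromosome 9 the cluster from Olfr24 to Olfr18, with 51 genes, had 12.7 ± 1.78 peaks per Mb (SD, n = 4), below all 4 values of the cluster from Olfr160 to Olfr986. In the chromosome 14 cluster from Olfr722 to Olfr750, 8 of 10 regions (80.0%) were called in all 4 libraries. In the chromosome 11 cluster from Olfr20 to Olfr412 it was 6 of 17 (35.3%), against 59.0% of all regions. Their regions also differed in strength, with median best rank percentiles over the libraries of 23.8 and 51.9 (low is strong). Whether agreement differed between clusters was not tested.

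The sparsest large cluster was Olfr172 to Olfr209 on chromosome 16, where 32 genes had 4 regions and 6.90 ± 0.919 peaks per Mb (SD, n = 4). By mean peak density the cluster from Olfr458 to Olfr47 on chromosome 6 followed, with 27 genes, 6 regions and 8.11 ± 2.99 peaks per Mb (SD, n = 4), and only 1 of its regions was called in all 4 libraries. By regions per Mb it came after the clusters from Olfr433 to Olfr220 on chromosome 1 and from Olfr24 to Olfr18 on chromosome 9, at 13.9 against 13.7 for the latter. Its libraries, from 4.63 to 11.6 peaks per Mb, overlapped those of the chromosome 16, 1 and 9 clusters, so its place among them is not resolved.

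The 3 large clusters above the comparable genome by merged regions had few genes. The cluster from Olfr288 to Olfr278-ps1 on chromosome 15 had 12 genes, 16 regions and 68.9 ± 7.25 peaks per Mb (SD, n = 4). The cluster from Olfr62 to Olfr1328 on chromosome 4 had 15 genes, 18 regions and 65.1 ± 14.4 peaks per Mb (SD, n = 4). Its 13, 16, 22 and 19 peaks (library order) were more in both mutant libraries, a difference that cannot reach a p below 0.33 in this design. The cluster from Olfr1358 to Olfr57 on chromosome 10 had 10 genes and 17 regions, of which 5 were called in all 4 libraries. Its peak density was 51.3 ± 8.54 per Mb (SD, n = 4), which straddled the comparable genome.

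**Figure D4:**
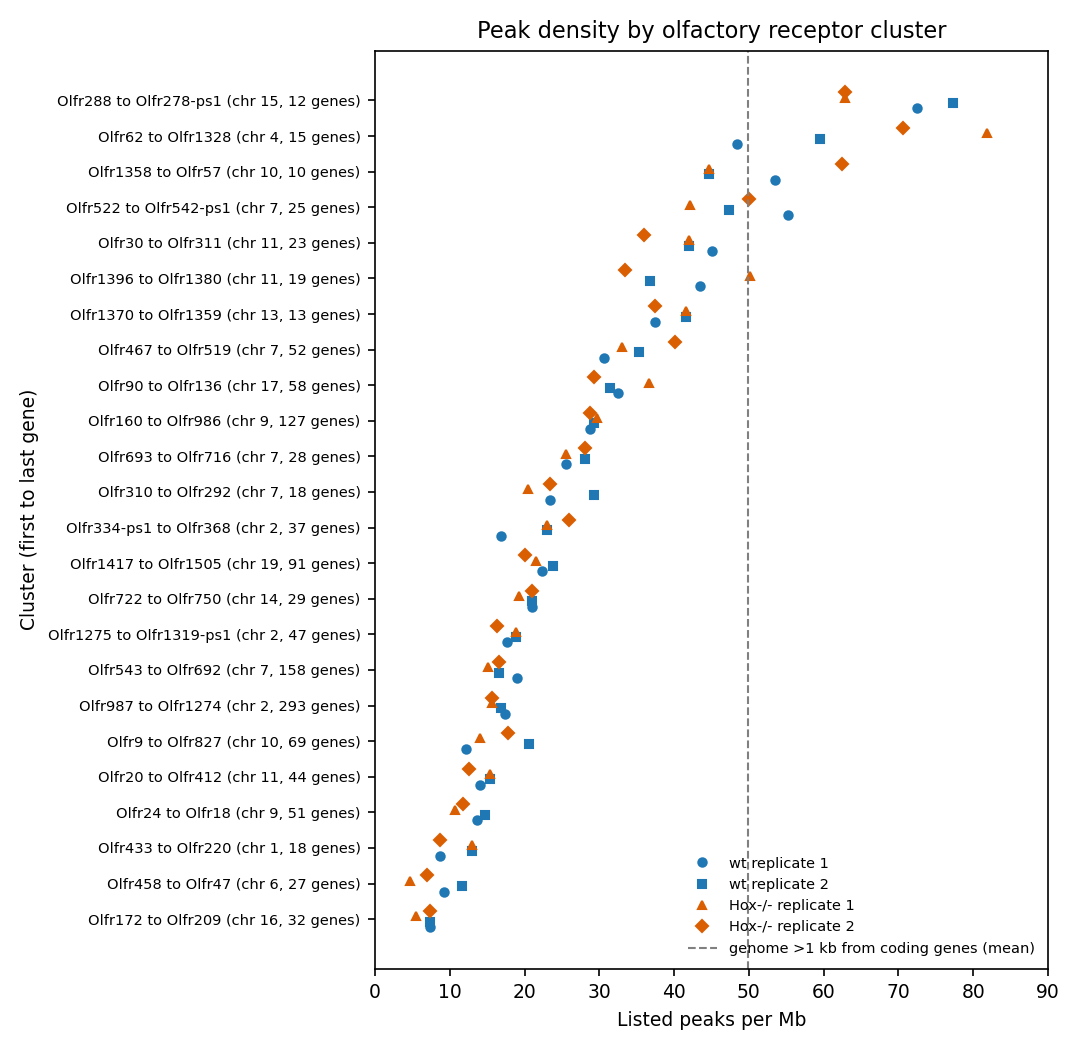
Listed peaks per Mb of territory (x axis, from 0) in the 24 clusters with 10 or more receptor genes (y axis, named by first and last gene), ordered by their mean. Points are single libraries and the dashed line is the mean of the genome over 1 kb from protein-coding genes, 49.9. Most clusters lie left of the line, from 6.90 on average in the chromosome 16 cluster to 68.9 in the chromosome 15 cluster.

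Receptor regions that were called were about as strong as others. Ranks were divided by the length of the list, so a low percentile is strong. The median percentile of peaks in receptor regions was 51.3, 50.7, 52.2 and 51.8 in library order. Other peaks had medians of 50.0 to 50.1, a difference of 1.50 ± 0.663 points (SD, n = 4; exact sign-flip permutation test, p = 0.13). Against other peaks over 1 kb from protein-coding genes the difference was 0.191 ± 0.511 points (SD, n = 4; same exact test, p = 0.625), smaller than the spread between libraries. Ranked by the fold over background, the difference was −4.04 points, which puts peaks in receptor regions ahead of other peaks, so the direction depended on the measure.

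A few receptor regions were among the strongest in the genome. In every library, 15 of 624 (2.40%) were among the 10000 strongest peaks, and so were 2.45% of the other regions over 1 kb from protein-coding genes and 3.74% of all other regions. Among the 50000 strongest, the shares were 16.2%, 15.5% and 17.9%. The strongest lay 3471 bp from Olfr147 (chr9:38407301-38408159) and ranked 558, 442, 533 and 385 in library order. It was 859 bp wide and 310 kb from the nearest other protein-coding gene, Vwa5a. The next lay 3134 bp from Olfr697 (chr7:106745091-106746536) and ranked 736, 1173, 1020 and 494. Both were thus in the first percent of each list, in both genotypes.

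The region 1632 bp from Olfr153 (chr2:87534591-87535348) ranked 678 and 865 in wt and 1508 and 971 in Hox-/-. That at 6547 bp from Olfr57 (chr10:79042350-79043230) ranked 1254, 1555, 1303 and 1001. The genotypes overlapped at Olfr57 and not at Olfr153. Near Olfr1431 (chr19:12198555-12199809) the ranks were 1324 and 1606 in wt and 662 and 722 in Hox-/-, higher in both mutant libraries. Near Olfr1339 on chromosome 4 they were 1326 and 1628 in wt and 2644 and 2627 in Hox-/-, lower in both. The other 4 of the 10 strongest, near Olfr339, Olfr1065, Olfr288 and Olfr1425, ranked between 1741 and 6190. These 10 were taken for their strength, so their ranks describe them, and none of them overlapped a start window.

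Of the 624 regions, 24 contained an annotated end of a receptor gene. Called in all 4 libraries were 13 of these 24, against 55.6% of receptor regions and 59.0% of all regions. The strongest of the 24 contained an end of the pseudogene Olfr1498-ps1 (chr19:13805250-13806139) and ranked 3471 to 8888. Those at Olfr373, Olfr1069-ps1, Olfr286 and Olfr658 followed, with their weakest ranks between 28715 and 49337.

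Receptor regions were slightly narrower than the average region. Their median merged width was 396 bp, with quartiles of 280 and 605 bp, against 431 bp for the other regions and 415 bp for those over 1 kb from protein-coding genes. The median listed interval was 396, 382, 392 and 384 bp in library order, and for other peaks it was 414, 409, 402 and 398 bp. The log2 ratio was −0.06 ± 0.03 (SD, n = 4; exact sign-flip permutation test, p = 0.13). Against peaks over 1 kb from protein-coding genes it was −0.01 ± 0.03 (SD, n = 4; same exact test, p = 0.875), within the spread between libraries.

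Regions of 1000 bp or more made up 4.65% of receptor regions (29) and 5.41% of the other regions over 1 kb from protein-coding genes, against 7.93% of all other regions. The widest, 2207 bp, lay near Olfr1127-ps1 (chr2:87514979-87517185), 4.11 kb from Pramel6, and ranked 15558.5 to 18221. Next was a region of 2079 bp near Olfr1122 (chr2:87393163-87395241), with ranks from 57725 to 134078. The other 3 of the 5 widest, near Olfr1421-ps1, Olfr875 and Olfr1372-ps1, were 1510 to 1674 bp wide and were called in all 4 libraries.

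The libraries agreed on receptor regions nearly as often as on other regions. Of the 624 regions, 347 (55.6%, exact 95% binomial interval 51.6% to 59.6%) were called in all 4 libraries, 75 in 3, 72 in 2 and 130 in 1. Over all regions, 59% were called in all 4. Among those over 1 kb from protein-coding genes and outside receptor territory the share was 58.0%, inside the interval. The 130 regions of a single library were spread evenly, at 29, 34, 31 and 36 in library order.

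Agreement fell with strength, as it did elsewhere. When regions were binned by their best percentile over the libraries, 152 of 152 receptor regions in the first 25 percentiles were called in all 4 libraries. In the bins up to 50, 75 and 100, 131 of 149 (87.9%), 57 of 167 (34.1%) and 7 of 156 (4.49%) were. The other regions over 1 kb from protein-coding genes had 99.9%, 89.9%, 36.9% and 4.05%, each inside the exact interval of the receptor regions. By pairs of libraries, the regions called in both divided by those called in either came to 0.753 for the wt pair and 0.710 for the Hox-/- pair. The 4 pairs across genotypes had 0.715 to 0.726. For the other regions the wt pair had 0.776, the Hox-/- pair 0.744 and the pairs across genotypes 0.730 to 0.752, so each of the 6 pairs was lower for receptor regions. The Hox-/- pair was below the pairs across genotypes among receptor regions and inside their range among the others.

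**Figure D5:**
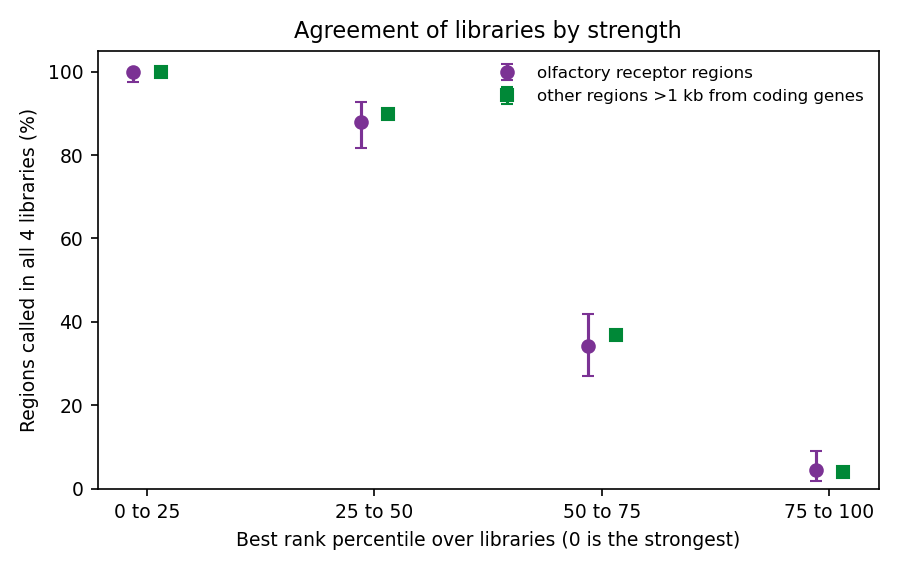
Share of regions called in all 4 libraries (y axis, percent, from 0) by best rank percentile over the libraries (x axis, 0 is the strongest), for the 624 receptor regions and for other regions over 1 kb from protein-coding genes. Bars are exact 95% binomial intervals, which cover counting error only. The sets fall together, from 100% against 99.9% in the strongest bin to 4.49% against 4.05% in the weakest.

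The genotypes were compared by the number and the rank of peaks in receptor regions. They held 573, 587, 555 and 556 listed peaks in library order. As a share of each list this was 0.268%, 0.271%, 0.290% and 0.278%. The share was higher in both Hox-/- libraries, on average by 0.0142 points (p = 0.33 by an exact permutation test, the lowest that 2 against 2 allow). Without Hox-/- replicate 1, which has the shortest list, the difference was 0.00827 points.

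In both wt libraries and neither Hox-/- library, 17 receptor regions (2.72%) were called, against 3.84% of all regions. The reverse pattern was found for 11 (1.76%), against 1.23% of all regions. The first share lay below the background and the second above it. Leaving out 1 library, so that 3 decide, gave 40 to 51 and 22 to 48 regions, and the shares over all regions rose with them. Those called in wt only were then 6.73% to 8.51% of receptor regions and 6.83% to 10.3% of all regions, and those in Hox-/- only 3.67% to 8.08% and 2.90% to 5.88%. These differences from the background were not tested. The strongest called in wt only lay near Olfr540-ps1 (ranks 106230 and 99365), Olfr159 (97686.5 and 107236), Olfr675, Olfr289-ps1 and Olfr5, near or below the middle of the lists. The region at Olfr5 overlapped the start of the gene and ranked 156511 and 158146. The strongest called in Hox-/- only lay near Olfr160 (ranks 107795 and 115679), Olfr1358, Olfr1340, Olfr1136 and Olfr1330.

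Ranks were compared in the 347 receptor regions called in all 4 libraries. The shift was taken as the log2 of the mean percentile in wt over that in Hox-/-, so a positive value means a higher rank in Hox-/-. Its median was −0.04, and 161 of 347 regions (46.4%) ranked higher in Hox-/-. Between replicates the corresponding medians were 0.01 in wt and 0.08 in Hox-/-. A percentile depends on the length of its list, and the Hox-/- lists were shorter than the wt lists and unequal in length. A median of 0 therefore does not mark equal ranks, and the sizes of these medians were not compared. By the same percentiles, the other regions called in all 4 libraries had a median of −0.12. Of them, 34.7% ranked higher in Hox-/- (35.6% of those over 1 kb from protein-coding genes). The part of list length in these values was not tested. The share that ranked higher in Hox-/- was thus larger among receptor regions, a difference that was not tested. Where the chromosome 9 cluster reaches into a stretch at 33 to 38 Mb, 6 such regions had a median of 0.45 and 4 of them ranked higher in Hox-/-, but the wt replicates alone differed there by a median of −0.25. Beyond 38 Mb the median of 28 regions was −0.16, with 9 ranking higher.

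Genes that act in the olfactory pathway were examined in the same libraries, by peaks within 1 kb of either gene end. Of 14 signalling and neuron genes, 8 had a peak in all 4 libraries, against 69.1% of protein-coding genes. These included Gnal and Adcy3, which encode the G protein subunit and the adenylyl cyclase downstream of the receptors, and Ric8b, an exchange factor for that G protein, with best ranks of 1970 to 2981. The strongest was beside Cnga4, a channel subunit gene, with best ranks of 61 to 92. No peak was found in any library at Omp, a marker of mature olfactory neurons, at Cnga2 and Cngb1, which encode subunits of the olfactory cyclic nucleotide-gated channel, at Stoml3 or at Rtp1. Its relative Rtp2, which like Rtp1 encodes a protein that helps receptors reach the cell surface, had 1 weak peak in wt replicate 2 and 1 in Hox-/- replicate 2.

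Of 12 genes for receptor choice and silencing, 12 had a peak in all 4 libraries, against 69.1% of protein-coding genes. Lhx2 and Ebf1, which encode factors that bind receptor enhancers, had best ranks of 11805.5 to 14442.5 and 3991 to 4586. Atf5, which encodes a stress-response factor that acts once a receptor is expressed, had 1041 to 1743. Lbr, a nuclear envelope gene, had 16346 to 20261, and Kdm1a, which encodes a histone demethylase, 43372.5 to 53704. Others were weak in all 4 libraries, such as Emx2, with best ranks of 99072 to 159950. A peak within 1 kb of a gene end can belong to a neighbouring gene.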

How the data were processed

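ATAC-seq peaks of 4 libraries, 2 wt and 2 Hox-/-, were analysed; samples were grouped by the genotype label. The authors deposited 1 narrowPeak list per library, with replicates not pooled. Per the submitters' processing notes, the tools included cutadapt 4.8, Bowtie2 2.5.0, Picard 2.18.2, bedtools 2.30.0, MACS2 2.2.9.1 and deepTools 3.5.4, with build mm10. Their settings, including the treatment of reads with several placements and of the transposase offset, are not given in the sources used here. The deposited values per peak are a fold over background (a ratio), a −log10 p and a −log10 q. They are those of the authors' peak caller, and served only for ranks and filters inside 1 list; −log10 q went down to 1.30. The lists contain no read counts.

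Peaks were merged where they overlapped by at least 1 bp, and 278 lines on unplaced or unlocalised sequence were left out. Genes came from RefSeq GRCm38.p6, whose gene table gives no strand; strand came from the table of start sequences, which holds windows for 944 of the 1428 receptor genes. No chromosome lengths were used: the genome is the 2703 Mb from the first to the last gene or peak of each chromosome. Clusters joined genes at most 500 kb apart. Densities, ranks and widths were compared over the 4 libraries by exact sign-flip permutation tests and genotypes by exact permutation tests, both two-sided. Scripts used Python 3.11.15, numpy 2.4.6, pandas 2.3.3 and scipy 1.17.1, and were tested on simulated peak lists.

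Single regions were named by rule: the 10 strongest called in all 4 libraries, the 5 widest, up to 5 called in 1 genotype only in each direction, and the 5 strongest at a receptor gene end. For this naming, strength was the rank in the weakest library that called the region. The members, lists and rules were chosen with earlier results of these data known. The bands of distance, the search for repeated words and the GC content of starts were added after the files were read. The planned motif search was limited to start windows, and alternatives are given below.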

Additional observations from a re-analysis of the deposited data

How the results depend on the processing

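Of 102 alternative values, 83 kept their direction or stayed close to the main value (counts to 1.5 times, shares to their interval), 17 moved and 2 changed sign. The difference in strength changed sign with a flank of 25 kb (−0.196 points) and when ranked by fold (−4.04 points); the cause was not tested. Its size also moved, to 3.77 points with a flank of 5 kb, 2.55 points when regions within 5 kb of other protein-coding genes were left out, and 0.323 points with the 100000 strongest peaks (exact sign-flip permutation test, p = 0.875). The number of receptor regions was 400 with a flank of 5 kb and 290 with the 100000 strongest peaks, since both take in fewer regions by construction. With the 100000 strongest peaks 65.5% of regions were called in all 4 libraries and 6 were called in wt only (2.07%), against 8 in Hox-/- only (2.76%); over all regions at that setting the shares were 67.2%, 2.47% and 2.00%. With a flank of 5 kb, 7 were called in Hox-/- only (1.75%, against 1.23% of all regions). In 24, 24 and 23 large clusters joined at 200, 500 and 1000 kb, 22, 21 and 20 were below the comparable genome.

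Across the 4 fits that each left out 1 library, the number of regions ranged from 588 to 599, the log2 density ratio from −1.01 to −0.97, and the strength difference from 1.26 to 1.76 points. The log2 width ratio ranged from −0.07 to −0.05, the share called in all remaining libraries from 60.4% to 62.8%, and the genotype difference from 0.00827 to 0.0200 points. Regions called in wt only ranged from 40 to 51, and those in Hox-/- only from 22 to 48. Over all regions these calls made up 6.83% to 10.3% and 2.90% to 5.88%. The share of all regions called in all remaining libraries was 63.6% to 66.0%. The number of large clusters below the comparable genome was 21 to 21; this alternative was chosen after seeing the data. The counts and the share rise because 3 libraries decide in place of 4.

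Equal replicate numbers did not mark pairs of libraries: across 347 regions, the rank difference between wt replicates and that between Hox-/- replicates had a correlation of −0.13. With the replicate block the genotype difference was 0.0142 points (exact sign-flip permutation test, p = 0.5, which is the lowest for 2 pairs). The depth of the libraries is unknown, so absence of a region from a list is not absence of accessibility.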

Other observations

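Receptor regions seldom fell in other annotated transcripts. The body of a lncRNA gene overlapped 27 of 624 receptor regions (4.33%), against 17.7% of the other regions over 1 kb from protein-coding genes, and the start window of a lncRNA gene overlapped 4 (0.641%, against 1.80%). Pseudogenes outside the receptor family overlapped 17 receptor regions (2.72%, against 1.97%). The density of annotated transcripts in receptor territory was not compared.

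Of the 624 receptor regions, 170 (27.2%) had another receptor region within 2 kb, and the median gap to the nearest other one was 7.46 kb. By chromosome, receptor territory had fewer regions per Mb than the comparable sequence of the same chromosome on 15 of 19 chromosomes. The exceptions were chromosomes 4, 5, 8 and 15, of which 5 and 8 hold 0.0399 and 0.0938 Mb of receptor territory. On chromosomes 12 and X no receptor region was found, in 0.0429 and 0.167 Mb of territory.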
